A study of Homo sapiens with 3 samples.

Results

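The 52 genes described here encode the junctions, polarity machinery and identity factors of epithelium, together with genes that mark intestinal epithelium. They were taken by gene name from an RNA sequencing table of 58735 genes, and all 52 names were found once each. Values are FPKM, reads scaled by gene length and library size, in 3 libraries labelled HCT116, the name of a cell line from a human colorectal carcinoma. The library groups were overexpression of ZEB1 K80R, a form named for a lysine replaced by an arginine, overexpression of wild-type ZEB1, and an empty vector control. All cultures were grown in the same medium with serum, and the treatment label of every sample was control. Each group had 1 library, so there is no spread between replicate cultures to judge a difference by, and the conditions were not tested. Whether the overexpressing cells were pools or single clones, and which promoter drove ZEB1, was not given in the sources used here.

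Epithelial cells are held together by tight junctions, built of claudins and occludin on scaffolds such as ZO-1, by adherens junctions and by desmosomes, which anchor keratin filaments. The Crumbs, PAR and Scribble complexes set the apical and basolateral sides of the cell. Transcription factors of the grainyhead and OVOL families maintain this state, and CDX and HNF4 factors add the intestinal programme. ZEB1 is a zinc-finger repressor that binds E-box sequences in the promoters of many epithelial genes and drives epithelial-mesenchymal transition. HCT116 cells are known as an adherent epithelial line with E-cadherin and EPCAM at the surface.

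The recovered reads summed to 13479517 in the ZEB1 K80R library, 14322537 with wild-type ZEB1 and 14764535 in the empty vector library. The library sizes by which the FPKM were scaled, recovered from the values, were 13321338, 13795840 and 15886593 in the same order. They lay below the sum of reads in both overexpression libraries and above it in the empty vector library. ZEB1 stood at 10.3, 9.83 and 5.66 FPKM in the same order, and CDH1, which encodes E-cadherin, at 0 in all 3. The ratio of ZEB1 to empty vector was 1.82 for ZEB1 K80R and 1.74 for wild-type ZEB1 as deposited, and 1.34 and 1.26 when the libraries were brought to the same total of FPKM, below 1.5-fold. The low end of the empty vector library differed from the others. Its most common count on a gene with reads was 5 reads, held by 404 genes, where the other libraries had a most common count of 1 read, held by 2902 genes in the ZEB1 K80R library and 2705 in the wild-type ZEB1 library. Reads were found on 24325 genes in the ZEB1 K80R library, 23457 with wild-type ZEB1 and 18928 in the empty vector library. Detection of low genes therefore cannot be compared directly between the empty vector library and the other libraries.

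**Figure D1:**
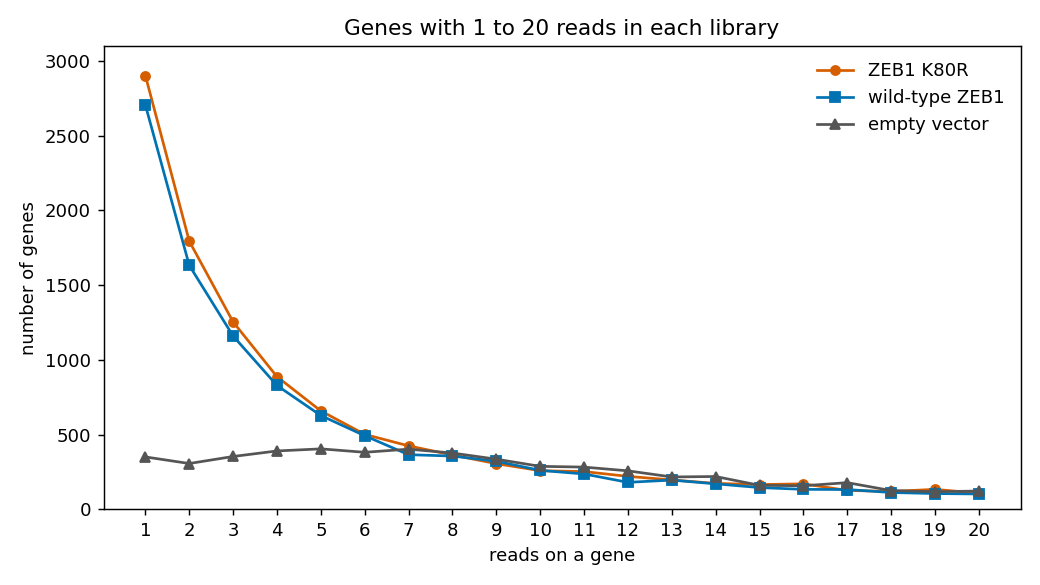
Number of genes (y axis) with each count from 1 to 20 reads (x axis) in the ZEB1 K80R, wild-type ZEB1 and empty vector libraries, 1 line per library. The ZEB1 K80R and wild-type ZEB1 curves are highest at 1 read (2902 and 2705 genes), while the empty vector curve is flat with its highest point at 5 reads (404 genes).

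Of the 52 genes, 16 were listed at 0 in all 3 libraries, 24 were trace genes with reads but below an FPKM of 1 in every library, and 12 reached an FPKM of 1 in at least 1 library. These are 30.8%, 46.2% and 23.1% of the set, where all 19951 protein-coding genes divided into 20.2%, 25.8% and 54.0%. Classes are descriptions of these libraries and were not tested. Summed over the set, the level was 45.5 FPKM in the ZEB1 K80R library, 41.1 with wild-type ZEB1 and 45.9 in the empty vector library. The 5 genes with the highest means, KLF5, TJP1, FERMT1, DSP and JUP, held 69.4%, 65.8% and 66.1% of these sums in the same order. A low level in a bulk sample can mean fewer expressing cells or less RNA per cell, and these cannot be told apart.

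**Figure D2:**
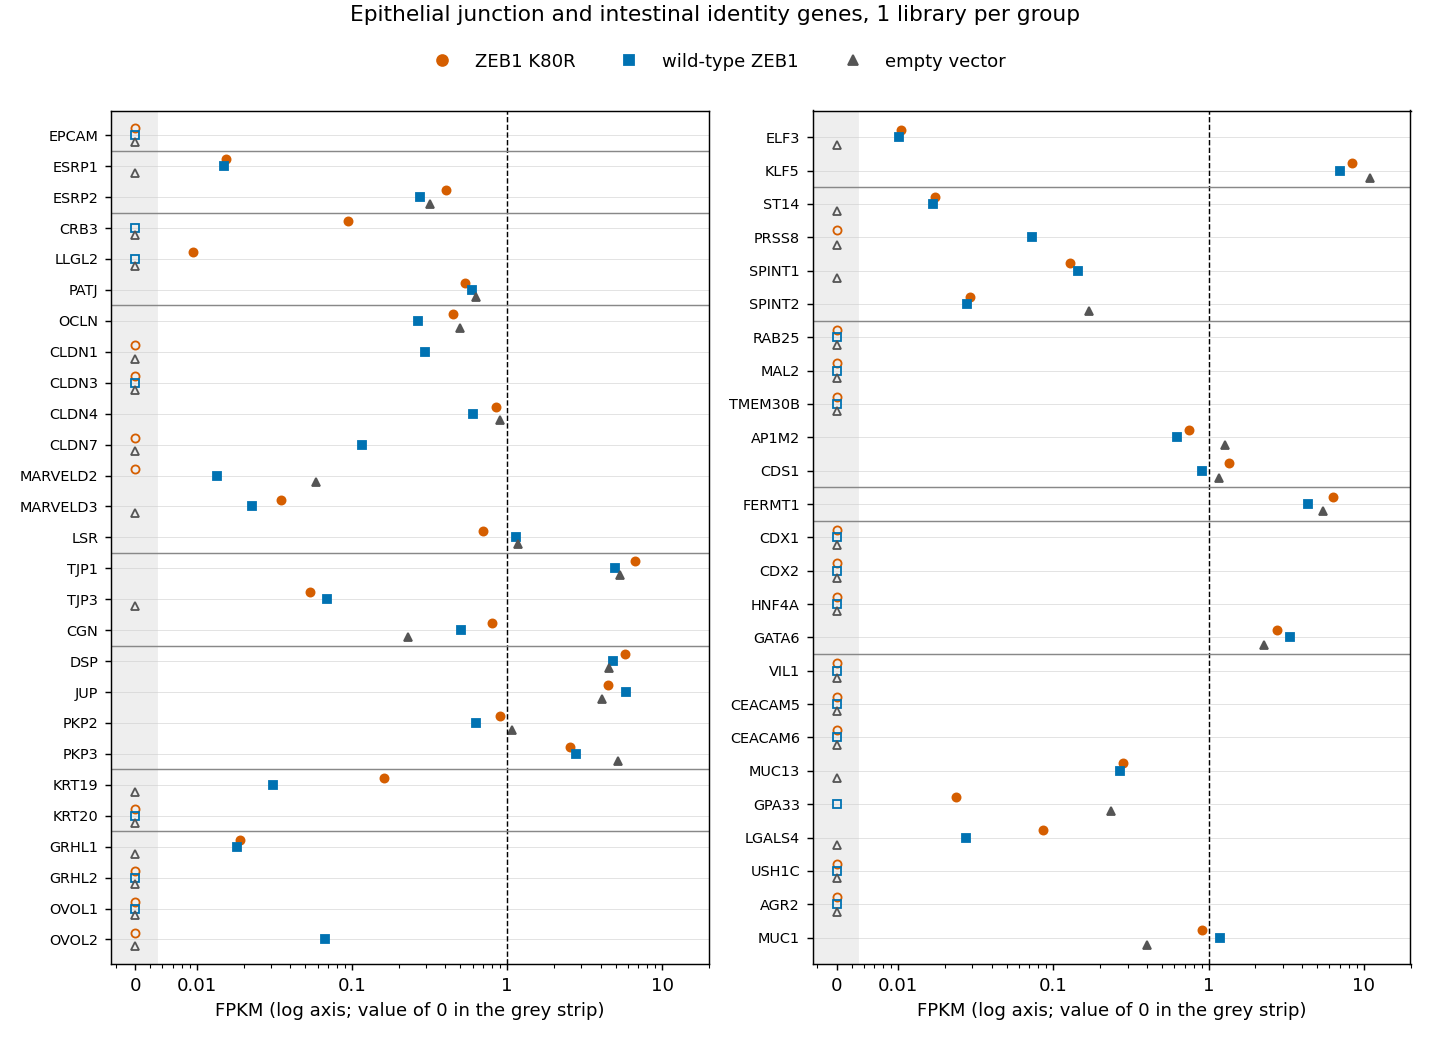
FPKM of each of the 52 genes (x axis, log scale) in the ZEB1 K80R, wild-type ZEB1 and empty vector libraries, ordered by role from the top of the left panel to the bottom of the right one, with horizontal lines between roles. Open symbols in the grey strip are values of 0, and the dashed line is an FPKM of 1, which 12 genes reach in at least 1 library while 16 genes have only open symbols.

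The genes at 0 in every library included widely used markers of intestinal epithelium. EPCAM, an adhesion protein of simple epithelia (ENSG00000119888; GRCh38, chromosome 2, 47345158 to 47387601), had no read. The 3 reads that a count of 0 allows would amount to an FPKM of 0.0894 in the ZEB1 K80R library, 0.0863 with wild-type ZEB1 and 0.075 in the empty vector library. Over the 16 genes this limit ran from 0.0308 to 0.177 FPKM in the ZEB1 K80R library, from 0.0297 to 0.171 with wild-type ZEB1 and from 0.0258 to 0.148 in the empty vector library. The limits cover counting error only. Counts of 1 to 4 reads were held by 1399 genes in the empty vector library, against 6836 for ZEB1 K80R and 6324 for wild-type ZEB1. Its lower limits therefore do not mean that it detected low genes better.

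Also at 0 were CDX1, CDX2 and HNF4A, transcription factors of the intestine. So were VIL1, which bundles actin in the brush border, the adhesion glycoproteins CEACAM5 and CEACAM6, the microvillar scaffold gene USH1C and the secretory pathway disulfide isomerase gene AGR2. Of genes with other roles, the list held the claudin CLDN3, the keratin KRT20 of differentiated enterocytes and the transcription factors GRHL2 and OVOL1. It also held the apical recycling GTPase RAB25, the transcytosis protein MAL2 and TMEM30B, a subunit of phospholipid flippases. The genes filed as intestinal were 13, namely 4 transcription factors and 9 surface and secretory genes, with KRT20 filed as a keratin. Of these 13, 8 were at 0, 3 were trace genes and 2 reached an FPKM of 1, namely GATA6 and MUC1.

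The labelled cell type was checked against 15 markers of colon epithelium, 9 of which, CDH1 included, were at 0 in every library. Only the keratins KRT8 and KRT18 of these 15 reached an FPKM of 1, at 41.6 and 48.0 FPKM in the ZEB1 K80R library, 49.5 and 51.7 with wild-type ZEB1 and 41.3 and 51.5 in the empty vector library. Both keratins are widespread in simple epithelia and are also found in other cultured cells. The summed level of the other 13 markers was 1.09, 0.776 and 0.897 FPKM in the ZEB1 K80R, wild-type ZEB1 and empty vector libraries. The 7 mesenchymal markers summed to 1028, 1118 and 649 FPKM in the same order, carried by VIM, SPARC, FN1 and CDH2. THY1 was at 0 throughout, and the collagen genes COL1A1, at 0.68, 0.93 and 1.7 FPKM, and COL1A2, at 0.161, 0.214 and 0.559, were highest with empty vector. The empty vector library, which carries no introduced ZEB1, thus goes against the label of a colon epithelial line in the same way as the overexpression libraries.

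Markers of further cell types were low, with 1 exception. The 4 leukocyte markers summed to 0.159, 0.192 and 0.0929 FPKM in the ZEB1 K80R, wild-type ZEB1 and empty vector libraries, with PTPRC and CD3E at 0. The 4 endothelial markers summed to 0.47, 0.61 and 0.13 FPKM. The muscle markers DES and MYOD1 were at 0, the 2 liver markers lay between 0.0509 and 0.398 FPKM in sum, and the 4 melanocyte markers between 1.04 and 1.3. Of the 4 neuronal markers only NEFL, a neurofilament subunit, was above 1, at 50.03 FPKM in the ZEB1 K80R library, 45.0 with wild-type ZEB1 and 71.9 in the empty vector library. The part of any other cell type in the levels of the 52 genes was not tested.

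The 24 trace genes were seen unevenly across libraries. Reads were found for 19 of them (79.2%) in the ZEB1 K80R library, 21 (87.5%) with wild-type ZEB1 and 8 (33.3%) in the empty vector library. Of the 5140 trace genes among all protein-coding genes, 82.8%, 81.9% and 55.4% had reads in the same order, so the empty vector library had fewer throughout. All 8 trace genes seen in the empty vector library had at least 4 reads there. In the ZEB1 K80R and wild-type ZEB1 libraries 11 of the trace genes each had only 1 to 3 reads. A group of 16 genes was at 0 in the empty vector library and above 0 in at least 1 overexpression library. These are the trace genes of the set without reads in the empty vector library. Reads were found there for 33.3% of the trace genes of the set and 55.4% of all trace genes. The part of the read distribution in this count was not tested.

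The polarity genes are textbook targets of ZEB1. CRB3, the transmembrane anchor of the Crumbs complex, had 2 reads in the ZEB1 K80R library and 0 in both others. LLGL2, a basolateral polarity protein of the Scribble group, had 1 read in the ZEB1 K80R library and 0 in both others. PATJ, a scaffold that links Crumbs to tight junctions, had the most reads of all trace genes, with 86, 98 and 119 in the ZEB1 K80R, wild-type ZEB1 and empty vector libraries. PATJ stood at 0.538, 0.592 and 0.625 FPKM, and its ratio to empty vector was 0.862 (0.645 to 1.15) for ZEB1 K80R and 0.948 (0.718 to 1.25) for wild-type ZEB1. Brackets after a ratio of FPKM hold its exact 95% interval, here and below, and reflect only the counting of reads in the 2 libraries.

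The splicing factors ESRP1 and ESRP2 direct epithelial exon choice. ESRP1 had 1 read in each overexpression library and 0 in the empty vector library. ESRP2 stood at 0.405, 0.274 and 0.317 FPKM, from 30, 21 and 28 reads, in the ZEB1 K80R, wild-type ZEB1 and empty vector libraries. The ESRP2 locus overlaps NFATC3 on the opposite strand, which had 192, 137 and 175 reads in the same order. The strand setting of the counting was not given in the sources used here, so reads of overlapping genes cannot be told apart. The same holds for CRB3 with SLC25A23, CLDN7 with ELP5, MARVELD3 with PHLPP2, OVOL2 with MGME1 and ELF3 with ELF3-AS1, all genes on the opposite strand with more reads than the epithelial gene. OVOL2 also overlaps SNX5, with 1888, 1895 and 2259 reads in the same order, and SNORD17, with 55, 39 and 364. Both lie on the strand of OVOL2, so a strand setting would not separate them from it.

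Tight junction membrane proteins were mostly trace genes. CLDN4, a claudin that limits sodium passage, had 0.846, 0.601 and 0.897 FPKM in the ZEB1 K80R, wild-type ZEB1 and empty vector libraries, the values closest below the limit of 1. OCLN, which encodes occludin, had 0.444, 0.268 and 0.493 FPKM in the same order. The wild-type library was the lowest for both genes. The ratio of wild-type ZEB1 to empty vector was 0.67 (0.44 to 1.01) for CLDN4 and 0.543 (0.323 to 0.89) for OCLN, and the ratio of ZEB1 K80R to empty vector was 0.943 (0.645 to 1.37) and 0.9 (0.582 to 1.38). CLDN1 had 15 reads and CLDN7 had 4 reads with wild-type ZEB1 and none in either other library. The tricellular junction protein gene MARVELD2 had 0, 1 and 5 reads, and its relative MARVELD3 had 3, 2 and 0.

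Over the whole claudin family, a set taken after values had been seen, 7 of 24 genes were at 0, 14 were trace genes and 3 reached an FPKM of 1. CLDN12, the most abundant, had 18.0, 17.0 and 12.8 FPKM in the ZEB1 K80R, wild-type ZEB1 and empty vector libraries. CLDN15 had 5.94, 5.86 and 5.79 FPKM, and CLDN20 1.86, 1.14 and 1.15. None of these 3 belongs to the epithelial set described here.

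Among the scaffolds, levels of relatives differed widely. TJP3, which encodes ZO-3, had 3 reads in the ZEB1 K80R library, 4 with wild-type ZEB1 and 0 in the empty vector library, while TJP1, which encodes ZO-1, had 1004, 770 and 950. CGN, which encodes the tight junction protein cingulin (chromosome 1, 151510510 to 151538692), had 0.794 FPKM from 70 reads in the ZEB1 K80R library, 0.504 from 46 reads with wild-type ZEB1 and 0.228 from 24 reads in the empty vector library. CGN was thus highest in the ZEB1 K80R library and lowest in the empty vector library. Its ratio was 3.48 (2.16 to 5.78) for ZEB1 K80R over empty vector, 2.21 (1.32 to 3.78) for wild-type ZEB1 over empty vector and 1.58 (1.07 to 2.34) for ZEB1 K80R over wild-type ZEB1. Its mean was below an FPKM of 1, so it does not enter the counts of differences below.

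The remaining trace genes were few in reads. MUC13, a transmembrane mucin of the gut, had 13 reads in each overexpression library, an FPKM of 0.279 for ZEB1 K80R and 0.269 for wild-type ZEB1, and none in the empty vector library. SPINT2, an inhibitor of surface proteases, and GPA33, an intestinal surface antigen, went the other way. SPINT2 had 2, 2 and 14 reads and GPA33 had 1, 0 and 12 in the ZEB1 K80R, wild-type ZEB1 and empty vector libraries. SPINT1 had 6, 7 and 0 reads, the keratin KRT19 had 5, 1 and 0, the galectin LGALS4 had 3, 1 and 0, and the proteases ST14 and PRSS8 had 1, 1 and 0 and 0, 3 and 0. The transcription factor GRHL1 had 2, 2 and 0 reads, OVOL2 had 0, 2 and 0, and ELF3 had 1, 1 and 0. In all, 19 of the 24 trace genes stayed below an FPKM of 0.3 in every library.

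Promoter sequence is shown for 6 genes because ZEB1 binds the E-box CAGGTG, whose reverse complement is CACCTG, and these genes span the range from the most such motifs to none. Each sequence is the 250 bases before a RefSeq transcript start (GRCh38.p14), 5′ to 3′ on the strand of the gene, with each motif in capitals. For CRB3, CLDN7 and TMEM30B the gene as annotated in the table begins upstream of the window, and for GATA6 within it, so other transcripts may start elsewhere.
CRB3 (chr19:6464021-6464270, plus strand): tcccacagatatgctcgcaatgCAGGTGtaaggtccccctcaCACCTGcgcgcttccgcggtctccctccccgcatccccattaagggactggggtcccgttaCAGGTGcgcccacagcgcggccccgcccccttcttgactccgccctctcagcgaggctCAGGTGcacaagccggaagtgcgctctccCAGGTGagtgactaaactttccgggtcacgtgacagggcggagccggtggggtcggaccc
CLDN7 (chr17:7262479-7262728, minus strand): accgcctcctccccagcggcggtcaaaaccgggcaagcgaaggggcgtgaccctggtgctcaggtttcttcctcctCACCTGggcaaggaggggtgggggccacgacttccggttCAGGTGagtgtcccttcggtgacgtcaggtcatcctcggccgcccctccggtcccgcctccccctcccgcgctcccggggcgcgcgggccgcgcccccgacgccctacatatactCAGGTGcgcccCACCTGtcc
TMEM30B (chr14:61281339-61281588, minus strand): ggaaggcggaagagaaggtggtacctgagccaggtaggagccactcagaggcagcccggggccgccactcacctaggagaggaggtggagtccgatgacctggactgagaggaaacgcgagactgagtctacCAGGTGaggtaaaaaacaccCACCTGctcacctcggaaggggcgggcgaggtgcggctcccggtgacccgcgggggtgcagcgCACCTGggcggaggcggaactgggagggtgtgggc
AP1M2 (chr19:10587313-10587562, minus strand): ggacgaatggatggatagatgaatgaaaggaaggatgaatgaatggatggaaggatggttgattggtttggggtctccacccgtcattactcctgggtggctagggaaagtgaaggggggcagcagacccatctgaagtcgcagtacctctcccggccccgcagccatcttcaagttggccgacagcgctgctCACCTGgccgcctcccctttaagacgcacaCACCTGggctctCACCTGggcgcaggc
MUC1 (chr1:155192916-155193165, minus strand): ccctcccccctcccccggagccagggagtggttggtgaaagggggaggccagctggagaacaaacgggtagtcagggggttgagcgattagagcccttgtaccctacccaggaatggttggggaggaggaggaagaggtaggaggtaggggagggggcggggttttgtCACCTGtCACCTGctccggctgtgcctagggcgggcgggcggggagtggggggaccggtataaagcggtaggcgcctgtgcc
GATA6 (chr18:22169339-22169588, plus strand): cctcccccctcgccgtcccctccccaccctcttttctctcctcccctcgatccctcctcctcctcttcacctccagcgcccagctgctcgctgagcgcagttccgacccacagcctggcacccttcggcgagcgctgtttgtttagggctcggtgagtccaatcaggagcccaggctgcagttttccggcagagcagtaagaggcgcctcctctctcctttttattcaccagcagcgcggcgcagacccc

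CRB3 carried 5 matches in this window, CLDN7 had 4, TMEM30B and AP1M2 had 3 each, MUC1 had 2 and GATA6 had none. A second RefSeq window of CLDN7, nearer the annotated start of the gene, held 0. RefSeq windows were matched for 34 of the 52 genes, giving 46 windows because some genes have several starts. At least 1 match stood in 21 of these windows, or 45.7%, against 17.5% of all 35116 windows and 17.0% of the 21021 windows of protein-coding genes. At least 2 matches stood in 21.7% of the windows of the set, against 2.53% of all windows. The matches were not limited to the genes at 0. They stood in 7 of 15 windows of the genes that reached an FPKM of 1, 10 of 19 windows of the trace genes and 4 of 12 windows of the genes at 0. Windows of the set had a median GC content of 64.4%, against 58.0% over all windows and 62.0% over the windows of protein-coding genes. Several windows belong to the same gene, and a match is a description of sequence, not evidence of binding.

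All 4 desmosome genes reached an FPKM of 1. DSP encodes desmoplakin, which ties keratin filaments to the plaque (ENSG00000096696; chromosome 6, 7541575 to 7586717). It had 5.76 FPKM in the ZEB1 K80R library, 4.84 with wild-type ZEB1 and 4.51 in the empty vector library. JUP encodes plakoglobin, shared by desmosomes and adherens junctions (chromosome 17, 41754604 to 41786931). It had 4.44, 5.81 and 4.06 FPKM in the same order. DSP was thus highest in the ZEB1 K80R library and JUP in the wild-type ZEB1 library.

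The plakophilins PKP2 and PKP3 are plaque proteins that cluster desmosomal cadherins. PKP3 (ENSG00000184363; chromosome 11, 392614 to 404908) had 2.56 FPKM from 129 reads in the ZEB1 K80R library, 2.79 from 146 reads with wild-type ZEB1 and 5.15 from 310 reads in the empty vector library. Its ratio to empty vector was 0.496 (0.401 to 0.611) for ZEB1 K80R and 0.542 (0.442 to 0.662) for wild-type ZEB1, which share the empty vector library. PKP2 (chromosome 12, 32790745 to 32896840) had 0.895, 0.628 and 1.07 FPKM, with a ratio to empty vector of 0.835 (0.624 to 1.11) for ZEB1 K80R and 0.585 (0.423 to 0.803) for wild-type ZEB1. Both plakophilins were highest in the empty vector library.

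TJP1 (ENSG00000104067; chromosome 15, 29699367 to 29968865) was the most abundant tight junction gene of the set. It had 6.69 FPKM in the ZEB1 K80R library, 4.95 with wild-type ZEB1 and 5.31 in the empty vector library. LSR, a receptor that recruits tricellulin to tricellular contacts, had 0.695, 1.14 and 1.17 FPKM in the same order. The ratio of ZEB1 K80R to wild-type ZEB1 was 1.35 (1.23 to 1.49) for TJP1 and 0.608 (0.363 to 0.999) for LSR. TJP1 was highest and LSR lowest in the ZEB1 K80R library.

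KLF5, a zinc-finger factor of proliferating epithelium including intestinal crypts (ENSG00000102554; chromosome 13, 73054976 to 73077542), was the most abundant gene of the set. It had 8.37 FPKM in the ZEB1 K80R library, 7.08 with wild-type ZEB1 and 11.01 in the empty vector library. These levels lay at percentiles 76.9, 73.5 and 81.3 of all protein-coding genes. Relative to empty vector the ratio was 0.76 (0.672 to 0.859) for ZEB1 K80R and 0.643 (0.565 to 0.73) for wild-type ZEB1. GATA6, a zinc-finger factor of gut endoderm and other tissues (chromosome 18, 22169443 to 22202528), had 2.78, 3.33 and 2.28 FPKM in the same order. As deposited it was lowest in the empty vector library, where KLF5 was highest. Neither the GATA6 window shown above nor the KLF5 windows hold a match.

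FERMT1 encodes kindlin-1, which activates integrins in epithelial cells (chromosome 20, 6074845 to 6123544). It had 6.35 FPKM in the ZEB1 K80R library, 4.4 with wild-type ZEB1 and 5.49 in the empty vector library. The phosphatidate enzyme gene CDS1 had 1.35, 0.91 and 1.17 FPKM, and AP1M2, the epithelial subunit of a basolateral sorting adaptor, had 0.746, 0.622 and 1.28. FERMT1, CDS1 and AP1M2 were all lowest in the wild-type ZEB1 library. The ratio of ZEB1 K80R to wild-type ZEB1 was 1.44 (1.25 to 1.67) for FERMT1, 1.48 (1.04 to 2.12) for CDS1 and 1.2 (0.619 to 2.34) for AP1M2.

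MUC1, a transmembrane mucin of glandular epithelium (ENSG00000185499; chromosome 1, 155185824 to 155192916), was higher in both overexpression libraries. It had 0.907 FPKM from 57 reads in the ZEB1 K80R library, 1.18 from 77 reads with wild-type ZEB1 and 0.4 from 30 reads in the empty vector library. Relative to empty vector the ratio was 2.27 (1.43 to 3.65) for ZEB1 K80R and 2.96 (1.92 to 4.67) for wild-type ZEB1. With CGN it had the highest ratios to empty vector among the genes with at least 20 reads in every library. MUC1, PKP2, LSR, AP1M2 and CDS1 all lay just above the limit of 1 in at least 1 library, from 1.07 FPKM for PKP2 to 1.35 for CDS1, and CLDN4 and CGN lay just below it.

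**Figure D3:**
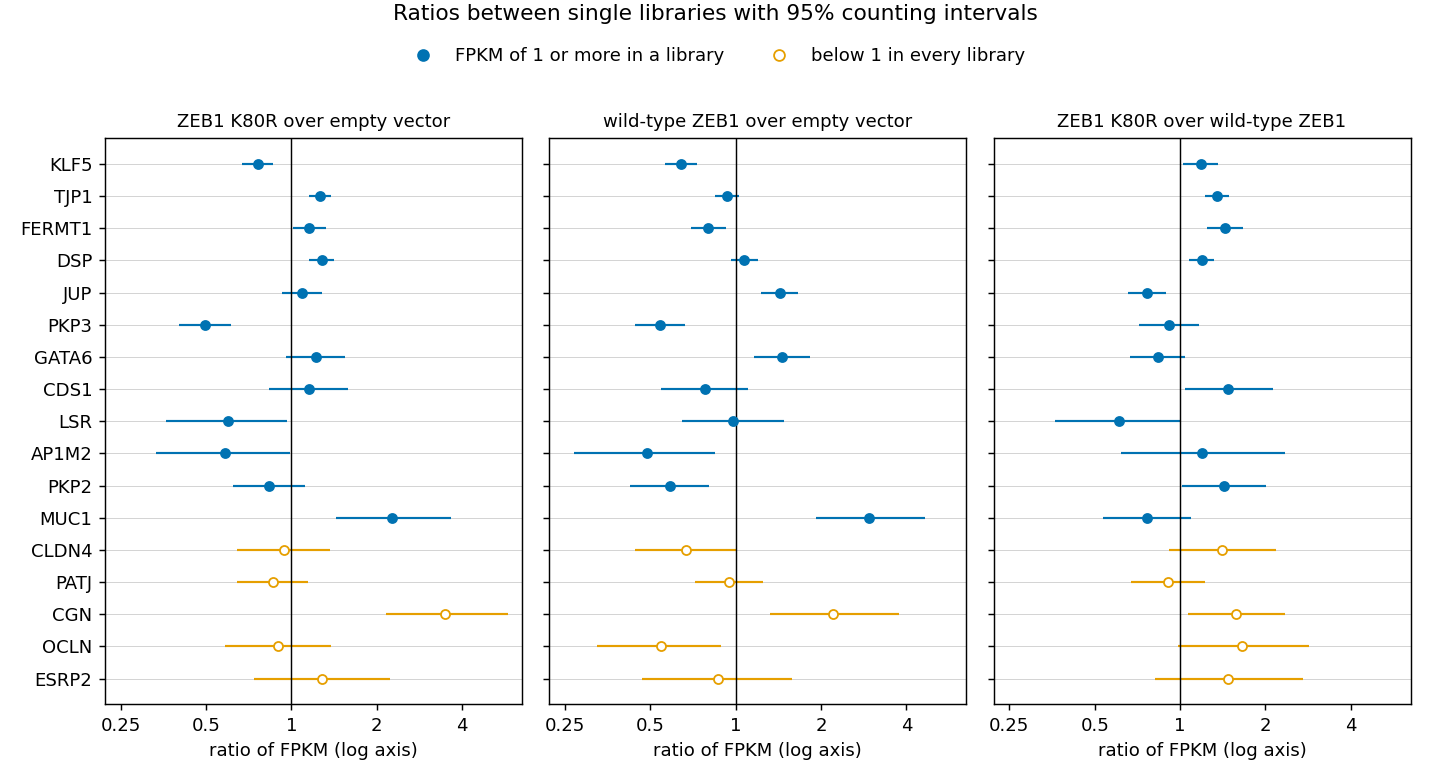
Ratio of FPKM (x axis, log scale) with exact 95% counting intervals (bars) for ZEB1 K80R over empty vector, wild-type ZEB1 over empty vector and ZEB1 K80R over wild-type ZEB1, for the genes that reach an FPKM of 1 (filled) and those below it with at least 20 reads in every library (open). PKP3 lies left of 1 in the first and second panels (0.496 and 0.542), and MUC1 (2.27 and 2.96) and CGN (3.48 and 2.21) lie right of it.

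Differences were counted as a ratio of FPKM + 1 of at least 1.5 where the mean FPKM over the libraries reached 1, a filter that 9 of the 52 genes passed. The pseudocount of 1 understates the differences of low genes. For ZEB1 K80R against empty vector 0 of the 9 genes were higher and 1, PKP3, was lower. Over 10372 protein-coding genes the shares were 9.68% higher and 10.3% lower, and 1 in 9 is near that background. For wild-type ZEB1 against empty vector 0 were higher and again 1, PKP3, was lower, against 12.0% higher and 7.63% lower over all, or 19.6% together. For ZEB1 K80R against wild-type ZEB1 all 9 lay within 1.5-fold, against 1.33% higher and 3.87% lower over all, or 5.20% together. The median difference of log2(FPKM + 1) over the 9 genes was 0.11, −0.08 and 0.21 in these comparisons, beside 0.01, 0.02 and −0.03 over all protein-coding genes tested.

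Scaling bears on the ratios to empty vector. With the FPKM of each library brought to the same total (TPM), every ratio was multiplied by 0.737 for ZEB1 K80R and by 0.728 for wild-type ZEB1 against empty vector, and by 1.01 for ZEB1 K80R against wild-type ZEB1. Mitochondrial genes took 9.75%, 7.77% and 1.29% of the reads in the ZEB1 K80R, wild-type ZEB1 and empty vector libraries. TJP1, DSP and FERMT1, which were higher in the ZEB1 K80R library than in the empty vector library as deposited (1.26, 1.28 and 1.16), were lower at a common sum (0.929, 0.942 and 0.853). The same held for JUP, GATA6 and CDS1, whose ratios of 1.09, 1.22 and 1.15 had intervals that include 1 and stood at 0.805, 0.898 and 0.847 at a common sum. GATA6 was then lowest in the ZEB1 K80R library. PKP3 was lower in both scalings. Counted at a common sum, 17 of the 52 genes passed the filter on the mean. The filter of 1 and the pseudocount of 1 then applied to TPM, which is larger than the FPKM of the same gene. CLDN4, for example, had 0.897 FPKM and 4.01 TPM in the empty vector library. Lower genes therefore entered and the pseudocount weighed less, so these counts differ from those above in more than scale. Of these, 1 was higher and 4 were lower for ZEB1 K80R against empty vector, where 5.27% of 12047 protein-coding genes were higher and 34.8% lower. For wild-type ZEB1 against empty vector 1 was higher and 8 were lower, against 6.12% higher and 35.9% lower over all. The lower genes were 23.5% of the 17 for ZEB1 K80R and 47.1% for wild-type ZEB1. These shares rest on few genes and on the same empty vector library, and their distance from the background was not tested. Between ZEB1 K80R and wild-type ZEB1 none was past 1.5-fold, against 4.04% higher and 5.30% lower over all. The median log2 difference of the 17 genes was −0.30, −0.53 and 0.26 in these comparisons, beside −0.39, −0.40 and −0.01 over all protein-coding genes.

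Other genes of the same structures, from lists written for this report with earlier results known, divided by how widely they are used. Of 28 junction and polarity genes that many cell types share, 23 reached an FPKM of 1, 5 were trace genes and none was at 0. The catenins CTNNB1, at 62.7 FPKM in the ZEB1 K80R library, 64.8 with wild-type ZEB1 and 75.3 in the empty vector library, and CTNNA1, at 51.4, 57.6 and 55.7, link cadherins to actin. SCRIB, a basolateral polarity scaffold, and NECTIN2, an adhesion molecule of adherens junctions, were also high, at 36.2, 40.2 and 65.0 FPKM and 54.99, 69.7 and 37.0 FPKM. LLGL1, the relative of LLGL2, had 9.18, 12.2 and 12.95 FPKM.

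Within this list, 2 of 23 genes were higher and 1 was lower in each comparison with empty vector, and none differed by 1.5-fold between ZEB1 K80R and wild-type ZEB1. These counts are near the shares of 9.68% higher and 10.3% lower, 12.0% and 7.63%, and 1.33% and 3.87% over all protein-coding genes in the 3 comparisons. At a common sum 26 genes of the list passed the filter. Of these, 1 was higher and 5 lower, 1 higher and 6 lower, and 1 higher and 0 lower in the same comparisons. Over all protein-coding genes 5.27% were then higher and 34.8% lower, 6.12% and 35.9%, and 4.04% and 5.30%. The genes named next were counted as deposited. The desmosomal cadherin DSG2 had 39.9, 27.9 and 21.1 FPKM in the ZEB1 K80R, wild-type ZEB1 and empty vector libraries and counted as higher for ZEB1 K80R. NECTIN2 counted as higher for wild-type ZEB1. PARD6A, a PAR complex adaptor, counted as higher for both, at 1.46, 1.41 and 0.212 FPKM with 5 reads in the empty vector library. PARD6A passed the filter on the mean only through the overexpression libraries, where it is high, so the filter favours its count as higher. SCRIB counted as lower for both. Median differences of log2(FPKM + 1) were 0.01, 0.02 and 0.01 for ZEB1 K80R against empty vector, wild-type ZEB1 against empty vector and ZEB1 K80R against wild-type ZEB1.

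Of 27 other epithelial genes, 9 were at 0, 11 were trace genes and 7 reached an FPKM of 1. KRT18 and KRT8, F2RL1, a receptor cleaved by surface proteases, and KRT80 were the most abundant. F2RL1 had 22.9, 19.9 and 16.3 FPKM and KRT80 had 10.2, 8.33 and 7.74 in the ZEB1 K80R, wild-type ZEB1 and empty vector libraries. All 5 genes past the filter on the mean lay within 1.5-fold in every comparison. At a common sum 7 passed, and 1 was higher and 0 lower in each comparison with empty vector. For ZEB1 K80R against wild-type ZEB1 0 were higher and 1 was lower. The shares higher over all protein-coding genes were then 5.27% and 6.12% against empty vector, and 5.30% were lower between the overexpression libraries. Of 30 other intestinal genes, 6 were at 0, 20 were trace genes and 4 reached an FPKM of 1. Only 3 of these 30 passed the filter on the mean. The forkhead factor FOXA2 had 1.36, 1.42 and 2.64 FPKM in the ZEB1 K80R, wild-type ZEB1 and empty vector libraries. It counted as lower than empty vector in both overexpression libraries. The brush border protocadherin CDHR5, at 0.988, 0.618 and 1.63, did so for wild-type ZEB1. CDHR5 passed the filter on the mean only through the empty vector library, where it is high, so its count as lower is favoured by the filter. Over all protein-coding genes 10.3% were lower than empty vector for ZEB1 K80R and 7.63% for wild-type ZEB1. At a common sum 5 of the intestinal genes passed, with 1 higher and 2 lower for ZEB1 K80R and 0 higher and 2 lower for wild-type ZEB1. Over all protein-coding genes 34.8% and 35.9% were then lower.

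By contrast, 24 of 30 mesenchymal genes reached an FPKM of 1, and 4 were trace genes. Of the 24 that passed the filter on the mean, 10 were higher and 1 was lower for ZEB1 K80R against empty vector, 13 were higher and 0 lower for wild-type ZEB1 against empty vector, and 1 was higher and 3 were lower for ZEB1 K80R against wild-type ZEB1. The shares over all protein-coding genes were 9.68% higher and 10.3% lower, 12.0% and 7.63%, and 1.33% and 3.87% in these comparisons. The median differences of the list were 0.45, 0.60 and −0.19. At a common sum 4 of 26 were higher and 4 lower (15.4% each) for ZEB1 K80R against empty vector. Over all protein-coding genes 5.27% were then higher and 34.8% lower. For wild-type ZEB1 against empty vector 7 (26.9%) were higher and 5 (19.2%) lower, beside 6.12% and 35.9% over all. The list includes ZEB1 itself. The 1 gene lower for ZEB1 K80R as deposited was COL1A1. It passed the filter on the mean only through the empty vector library, where it is high, so the filter favours its count as lower. VIM, which encodes vimentin, had 436, 546 and 283 FPKM in the ZEB1 K80R, wild-type ZEB1 and empty vector libraries. Its ratio to empty vector was 1.54 for ZEB1 K80R and 1.93 for wild-type ZEB1 as deposited, and 1.14 and 1.41 at a common sum. Housekeeping genes, all 20 above an FPKM of 1 in every library, had 2 higher and 3 lower, 7 higher and 2 lower, and 1 higher and 0 lower in the same comparisons. At a common sum 1 of them was higher and 8 were lower in each comparison with empty vector. For ZEB1 K80R against wild-type ZEB1 1 was again higher and 0 lower.

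**Figure D4:**
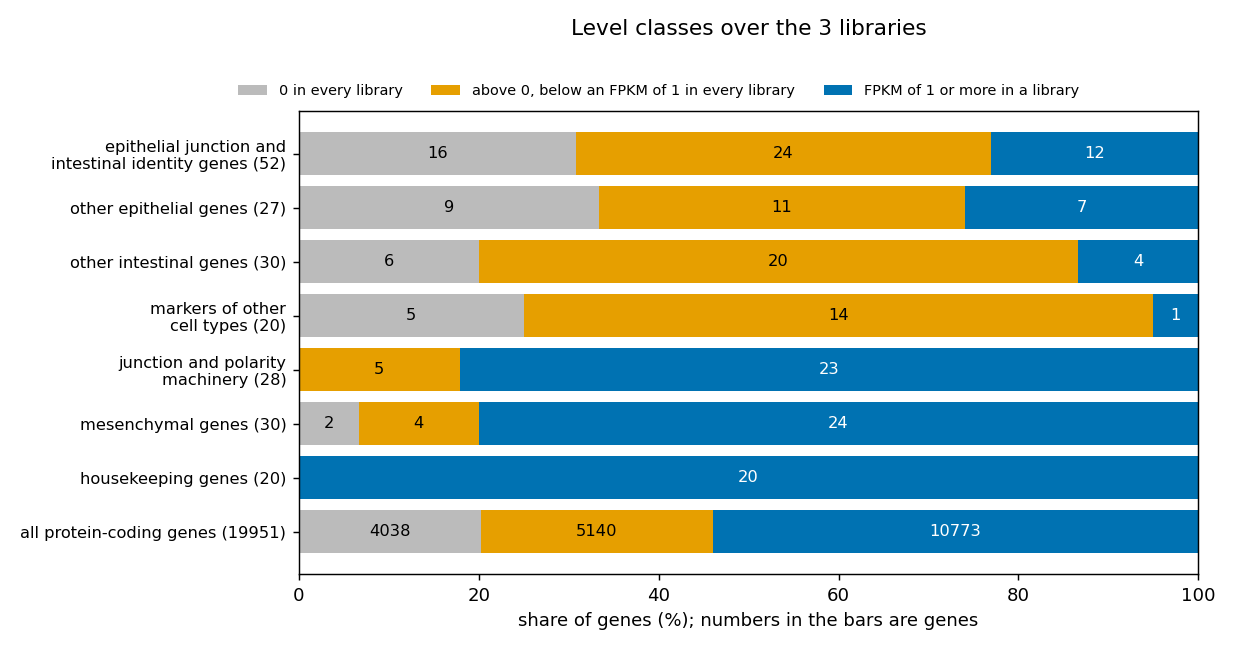
Share of genes (x axis, percent, bars from 0 to 100) at 0 in every library, above 0 but below an FPKM of 1 in every library, and at an FPKM of 1 or more in at least 1 library, for the epithelial junction and intestinal identity genes, the 6 other lists and all protein-coding genes. Numbers of genes are in the bars and behind the names, and 12 of 52 genes of the set are in the last class, against 10773 of 19951 protein-coding genes.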

How the data were processed

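RNA was sequenced from 3 cultures, 1 per group taken from the genotype label. Per the labels' protocols, libraries were made from total RNA with a SMARTER mRNA kit. The submitters' processing notes list featureCounts 1.5.0-p3, hg38, CASAVA and DESeq2 1.20.0, without roles. No aligner, strand setting or annotation is given in the sources used here. FPKM per gene is the unit the authors deposited. All 58735 identifiers were found in GENCODE release 29 (GRCh38), and the coordinates of all 52 members were the same there.

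FPKM multiplied by gene length was a whole multiple of 1 step per library for 100% of values above 0, within 0.05 reads, which gave the reads used for counting intervals and limits (95%, exact Clopper-Pearson, SciPy 1.17.1). A count of 0 was taken to allow 3 reads. Intervals and limits cover counting error only, because amplified copies of a molecule are not independent reads.

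Differences were taken on log2(FPKM + 1). With 1 library per group no p-value was computed. The members, lists and thresholds were chosen with earlier results of these data known. Named were all members that reached an FPKM of 1, the 6 trace members with the most reads, every member at 0, ZEB1, CDH1 and VIM, and up to 4 leading or most different genes of each other list that the text describes. Other genes named, the overlapping genes and the claudin family were chosen after their values were seen. Promoter windows came from RefSeq. Alternatives were other thresholds, pseudocounts, filters and scalings. The scripts were tested on simulated data.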

Additional observations from a re-analysis of the deposited data

How the results depend on the processing

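The counts of members at 0, trace and at an FPKM of 1 or more changed with the thresholds. With at least 4 reads required in a library, 26 members counted as absent and 14 as trace. With an FPKM of at least 5 required, 6 counted as expressed. With an FPKM of at least 0.5 required, 21 counted as trace and 15 as expressed. At a common sum, with a TPM of at least 1 required, 18 counted as trace and 18 as expressed, in place of 24 and 12. The members at 0 stayed 16 in both. For members past 1.5-fold against empty vector, a common sum (TPM), where 17 members passed the filter, gave 1 higher (CGN) and 4 lower for ZEB1 K80R and 1 higher (MUC1) and 8 lower for wild-type ZEB1, where 34.8% and 35.9% of all protein-coding genes were lower. A pseudocount of 0.1 gave 2 lower for ZEB1 K80R, adding LSR, 2 lower for wild-type ZEB1, adding KLF5, and 1 lower, LSR, for ZEB1 K80R against wild-type ZEB1. A mean FPKM of at least 5, which 4 members passed, and a 2-fold limit each gave 0 lower for both. A mean FPKM of at least 0.1 gave 1 higher, MUC1, for wild-type ZEB1. Rescaling by the median ratio of genes multiplied ratios by only 1.001 for ZEB1 K80R and 1.01 for wild-type ZEB1 against empty vector. For ZEB1 K80R against wild-type ZEB1 the factor was 0.991. It left 8 members past the filter in place of 9 and gave the same counts of members past 1.5-fold. None of 36 ratios of expressed members moved outside its counting interval. With factors this close to 1 little could change, so this rescaling is no check on scale. The common sum left 21 of the 36 within their intervals, took 12 outside, and reversed TJP1 (0.929), DSP (0.942) and FERMT1 (0.853) for ZEB1 K80R against empty vector. The fewer or more members tested account for part of the changed counts by construction. At a common sum the pseudocount of 1 also weighs less, because TPM values are larger than FPKM. Otherwise the cause was not tested. No paired analysis was possible because each group has 1 library and the labels carry no replicate numbers. Depth limits every statement on trace members, which often rest on 1 to 3 reads.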
